A study of Mus musculus with 6 samples.

Results

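The ectodysplasin pathway was followed through 6 genes in the dental epithelium of the mouse mandibular first molar (M1). These were the ligand Eda, its receptors Edar and Eda2r, the Edar-like receptor Tnfrsf19, and the adaptors Edaradd and Traf6. They were taken by gene name from a table of 55487 genes, where each name matched 1 row, and 5 of the 6 averaged 1 TPM (a share of the library scaled for transcript length) or more and were tested among 13719 genes. The control group was Wnt10aflox/flox, in which both copies of Wnt10a carry loxP sites but no Cre is present, and the conditional knockout (cKO) group was K14-Cre;Wnt10aflox/flox, in which Cre is driven by the keratin 14 promoter of epithelial cells. Each group had 3 libraries from postnatal day 2.5 (PN2.5), and each library was made from the pooled dental epithelium of several M1, so that a library is a pool and not 1 animal. The labels call the libraries biological replicates without naming litters or animals, and the p-values below measure the spread between these pools.

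Wnt10a itself was read first, as a check of the labels. It was at 55.96, 51.2 and 57.86 TPM in control replicates 1, 2 and 3, and at 22.69, 21.79 and 32.22 TPM in the cKO replicates. The groups did not overlap, and cKO stood at 46.5% of control by their means (log2 fold change -1.10, SE 0.19, unadjusted p = 0.000653, adjusted p = 0.747 by limma with Benjamini-Hochberg adjustment over all genes tested). The value is a sum over the gene and does not separate the part between the loxP sites. The study describes Wnt10a as weaker in epithelium than in adjacent odontoblasts. The remaining level therefore does not give the extent of deletion in epithelial cells. The label of dental epithelium was met by high keratin 14 (Krt14, 2494 TPM in control against 2430 TPM in cKO on average) and by the enamel matrix gene Amelx, at 179230 and 142640 TPM. The collagen gene Col1a1, abundant in dental mesenchyme, was also present and averaged 2251 TPM in control against 2309 TPM in cKO.

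Ectodysplasin is a ligand of the tumour necrosis factor (TNF) family that is made as a trimeric membrane protein and released by furin cleavage. It binds the death domain receptor Edar, which recruits Edaradd and, through TRAF adaptors and the TAB and IKK complexes, frees NF-kB to enter the nucleus. In people and mice, loss of Eda, Edar or Edaradd gives hypohidrotic ectodermal dysplasia, with missing or misshapen teeth, sparse hair and absent sweat glands. In the tooth germ the pathway is best known for its part in the enamel knot, the signalling centre that shapes the cusps, where it exchanges signals with the Wnt pathway.

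Eda is spliced into forms that differ by a short stretch in the receptor binding domain. The longer form (ectodysplasin A1) binds Edar, and the shorter form (ectodysplasin A2) binds Eda2r. Both junctions are shown because the deposited value is a sum over the gene and does not separate the ligand of Edar from the ligand of Eda2r. In GRCm38 (GENCODE M21, plus strand of chromosome X) the exon of the longer form ends at base 100395149 and that of the shorter form at base 100395143, and both join an exon that begins at 100396905. Each line gives 27 bases on either side of the difference, with capitals for the 6 bases, or 2 codons, that the longer form keeps at this junction; the transcripts shown, of 391 residues (Eda-206) and 386 residues (Eda-205), differ elsewhere as well.
Eda-206, longer form: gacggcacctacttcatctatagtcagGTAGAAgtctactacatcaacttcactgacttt
Eda-205, shorter form: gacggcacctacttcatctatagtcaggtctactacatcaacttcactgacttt

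The members spanned a wide range of levels, and their order was the same in both groups. From high to low by group mean it ran Tnfrsf19, Traf6, Eda, Edaradd, Edar and Eda2r, on the TPM scale, which is per length. In control, Tnfrsf19 was 8.48 times Traf6, Traf6 was 2.01 times Eda, and Edar was 6.88 times Eda2r. Eda and Edaradd could not be separated in either group, since their ranges overlapped and Eda was the higher in 2 of 3 libraries of each. Edaradd stood above Edar in all 3 control libraries without overlap, whereas in cKO their ranges overlapped and Edaradd was the higher in 2 of 3 libraries. All the other neighbours in the order had separate ranges in both groups.

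**Figure D1:**
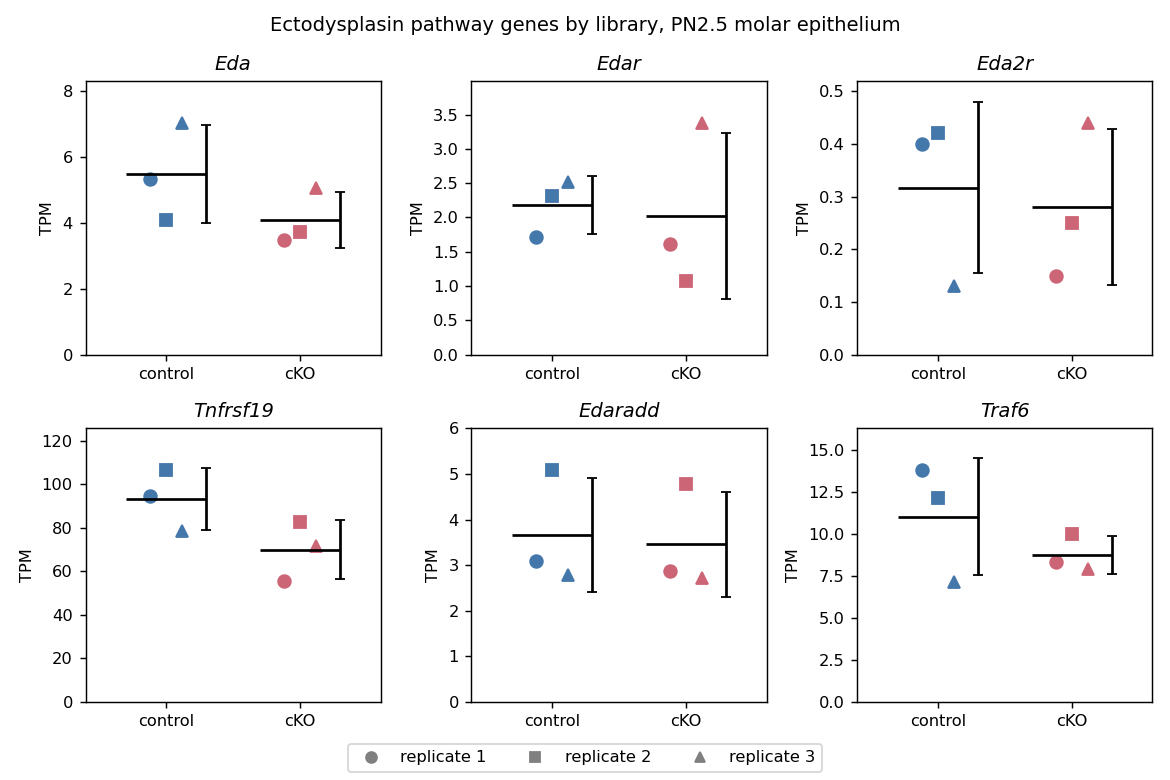
TPM of the 6 members in each of the 3 control and 3 cKO libraries, 1 panel per gene with its own vertical axis from 0; points are libraries, marked by replicate, horizontal bars are group means and error bars SD (n = 3). In every panel the control and cKO points overlap.

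The first question was whether the ligand differed when epithelial Wnt10a was deleted. Eda (chrX:99975606-100400762, plus strand, 9 exons in its longest transcript) was at 5.33, 4.08 and 7.03 TPM in the control replicates and at 3.48, 3.71 and 5.04 TPM in the cKO replicates. The highest library was a control and the lowest a cKO, but cKO replicate 3 lay above control replicate 2, so the groups overlapped. The means were 5.48 ± 1.48 and 4.08 ± 0.842 TPM (SD, n = 3 each), a cKO level of 74.4% of control. The log2 fold change, on the log2(TPM + 1) scale used throughout, was -0.34 (SE 0.25, 95% interval -0.94 to 0.26, limma unadjusted p = 0.222, adjusted p = 1.00). It was -0.50 without control replicate 2 and -0.17 without control replicate 3, so its size rested on single control libraries.

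Among 18 genes of the TNF ligand family, Eda was the most abundant in each of the 6 libraries. Its share of the family's summed TPM was 54.2%, 49.0% and 60.7% in control against 46.5%, 32.04% and 65.8% in cKO. The cKO libraries held both the lowest and the highest share, so no direction can be given. Tnfsf12 (TWEAK, a ligand of Tnfrsf12a) came next in every library, at 2.56, 1.29 and 2.79 TPM in control against 1.90, 3.57 and 1.44 TPM in cKO (log2 fold change 0.02, limma unadjusted p = 0.950). The other 16 ligands had means below 1 TPM and were not tested, and 3 of them, Cd40lg, Cd70 and Tnfsf4, were listed at 0 in all libraries.

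Edar (chr10:58600789-58675654, minus strand, 12 exons), the receptor of the longer form, was at 1.71, 2.31 and 2.52 TPM in control and at 1.61, 1.07 and 3.38 TPM in cKO. The cKO libraries held both the lowest and the highest value, so all 3 control values lay inside the cKO range. The means were 2.18 ± 0.420 and 2.02 ± 1.21 TPM (SD, n = 3 each), and the coefficient of variation was 19.3% in control and 59.8% in cKO. The log2 fold change was -0.14 (SE 0.33, 95% interval -0.92 to 0.64, limma unadjusted p = 0.689, adjusted p = 1.00), an interval that allows a lower as well as a higher level in cKO. Without cKO replicate 2 the estimate was 0.097 and without cKO replicate 3 it was -0.44, so its sign rested on single libraries.

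Eda2r (chrX:97333840-97377216, minus strand), the receptor of the shorter form, was below 0.5 TPM in every library. Its values were 0.40, 0.42 and 0.13 TPM in control against 0.15, 0.25 and 0.44 TPM in cKO, with full overlap (means 0.317 ± 0.162 and 0.280 ± 0.147 TPM, SD, n = 3 each). It had too low a mean to be tested in the fit, and an exact two-sided permutation test of its 6 values gave p = 1. For 3 libraries against 3 the smallest p that this test can give is 0.1.

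The RNA level of receptor relative to ligand was also compared, as log2((Edar + 1)/(Eda + 1)) of the TPM in each library. It was -1.22, -0.62 and -1.19 in control and -0.78, -1.19 and -0.46 in cKO. Eda RNA exceeded Edar RNA on the TPM scale in all 6 libraries, and the groups overlapped. The Eda value sums the longer and shorter forms, of which the longer binds Edar, and protein was not measured. The group difference was 0.20 (means -1.01 ± 0.34 and -0.81 ± 0.36, SD, n = 3 each, exact two-sided permutation p = 0.5).

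Tnfrsf19 (TROY), a receptor whose extracellular part resembles that of Edar and which is known as a Wnt target in several tissues, was by far the most abundant member. It lies on chr14:60963875-61046490 (minus strand, 10 exons). Control replicates 1, 2 and 3 were at 94.81, 106.61 and 78.47 TPM, and cKO replicates 1, 2 and 3 at 55.47, 82.63 and 71.54 TPM. The 2 highest libraries were controls and the 2 lowest were cKO, but cKO replicate 2 lay above control replicate 3. The means were 93.3 ± 14.1 and 69.9 ± 13.7 TPM (SD, n = 3 each), so that cKO stood at 74.9% of control. The log2 fold change was -0.42 (SE 0.20, 95% interval -0.89 to 0.055), with limma unadjusted p = 0.0751 and adjusted p = 1.00, the smallest unadjusted p among the 5 members tested. The unadjusted p went below 0.05 under 5 of the 16 alternative settings, for example to 0.0399 with quantile normalization and 0.0415 without cKO replicate 2. It rose to 0.158 without control replicate 1, 0.189 without control replicate 2 and 0.216 without cKO replicate 1, where the estimate was -0.26, and the adjusted p was between 0.519 and 1.00 in all 16 settings. The other genes named from the lists each had an adjusted p of 1.00 by limma, apart from Wnt10a.

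Within the TNF receptor family of 28 genes, Tnfrsf19 ranked between place 1 and place 3 in the libraries. Its share of the family's summed TPM was 28.4%, 29.6% and 21.9% in control against 21.7%, 30.4% and 19.9% in cKO, with overlap. Relt, the other leading receptor, was at 94.96, 117.02 and 127.49 TPM in control against 72.06, 46.48 and 120.51 TPM in cKO (log2 fold change -0.60, limma unadjusted p = 0.114). Tnfrsf12a, the TWEAK receptor, averaged 57.1 and 60.2 TPM. Edar ranked between place 11 and place 17, and Eda2r between place 18 and place 24. Of the 16 receptors tested, none was past the study's criteria, an unadjusted p below 0.05 with a difference of more than 20% of the control mean, and none had groups without overlap (over all genes tested 2.47% lower and 1.55% higher for the criteria, and 6.13% and 3.51% for no overlap). The criteria were met by 1 receptor with quantile normalization, over protein-coding genes other than Amelx and Ambn, and without control replicate 3, cKO replicate 2 or cKO replicate 3. They were met by 2 receptors with the replicate block and by 1 of 27 without a filter on low values. Over all genes, 649, 756, 1159, 282, 951, 1315 and 940 met them in these fits, in the order given. Fitted values were below 0 for 10 and above 0 for 6, with a median of -0.04 against -0.07 over all genes tested, and the sign of that median turned positive with quantile normalization, with median-ratio scaling and without cKO replicate 1. Fas, the death receptor, was at 3.14, 4.07 and 3.36 TPM in control against 3.71, 4.57 and 4.92 TPM in cKO (log2 fold change 0.25, limma unadjusted p = 0.276). Tnfrsf22, a decoy receptor, had a log2 fold change of -0.35 (limma unadjusted p = 0.289).

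**Figure D2:**
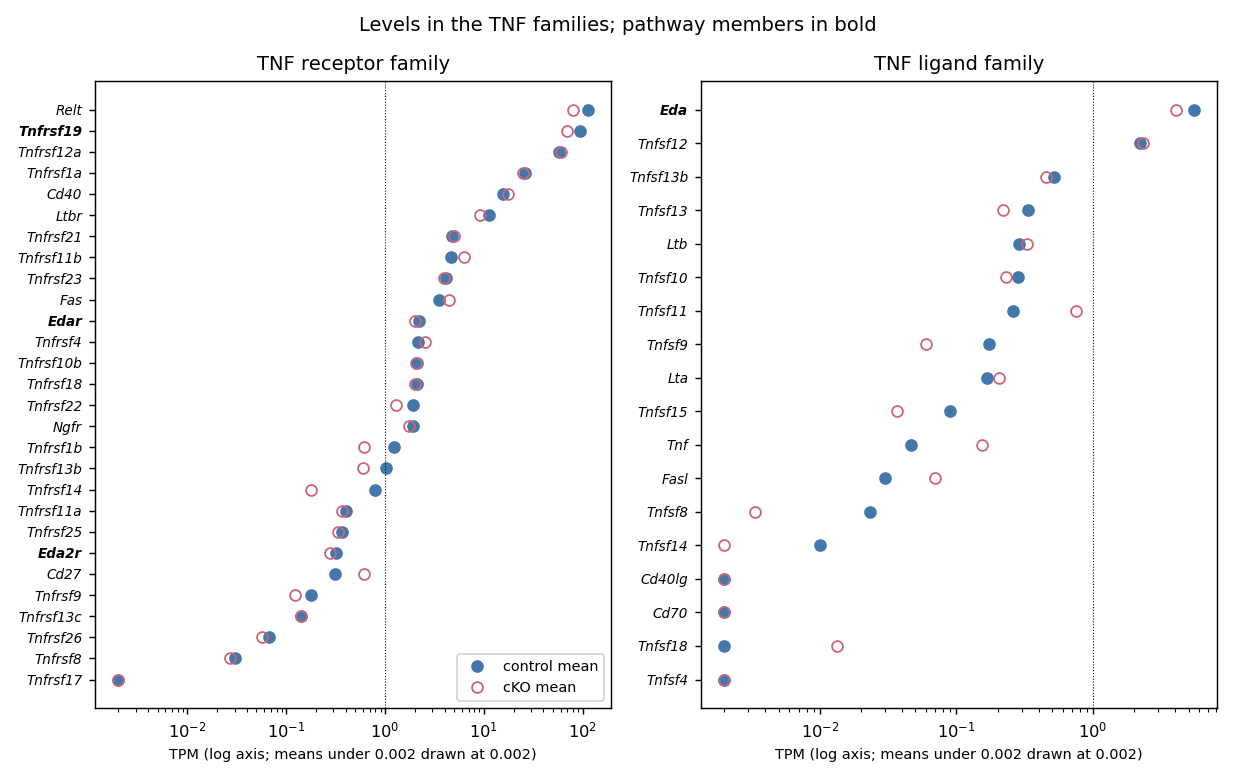
Mean TPM of the genes of the TNF ligand and TNF receptor families in control and cKO, on a logarithmic axis, with 1 point per group and gene, means at or near 0 drawn at the left edge and a dotted line at 1 TPM. Eda led the ligands at 5.48 TPM in control against 4.08 TPM in cKO, and Tnfrsf19 stood with Relt and Tnfrsf12a at the top of the receptors, well above Edar.

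Edaradd (chr13:12472632-12520438, minus strand, 6 exons), the death domain adaptor of Edar, was at 3.09, 5.09 and 2.78 TPM in control against 2.87, 4.78 and 2.72 TPM in cKO. Replicate 2 was the high library of each group, and the remaining libraries lay close together. The means were 3.65 ± 1.25 and 3.46 ± 1.15 TPM (SD, n = 3 each), with a log2 fold change of -0.06 (SE 0.29, 95% interval -0.75 to 0.63, limma unadjusted p = 0.846, adjusted p = 1.00). Once length and GC content were corrected for, the estimate was 0.19, so no direction can be given for this gene.

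Traf6 (chr2:101678429-101701669, plus strand, 8 exons), the ubiquitin ligase that passes the signal on to the TAB and IKK complexes, was at 13.8, 12.11 and 7.11 TPM in control against 8.30, 10 and 7.91 TPM in cKO. Control replicate 3 was the lowest of all 6 libraries, while the other control libraries were the highest of the 6. The means were 11.01 ± 3.48 and 8.74 ± 1.11 TPM (SD, n = 3 each), and the log2 fold change was -0.26 (SE 0.27, 95% interval -0.89 to 0.36, limma unadjusted p = 0.355, adjusted p = 1.00). Without control replicate 3 the estimate was -0.52 with an unadjusted p of 0.0472 and the study's criteria were met, whereas without control replicate 1 it was -0.09 (unadjusted p of 0.776) and without control replicate 2 -0.18. The size of the estimate therefore rested on single control libraries, which moved it in opposite directions.

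Of the members, all 5 that were tested had a fitted value below 0 and none met any of the criteria for a difference. An adjusted p below 0.05 was reached by 2 of the 13719 genes (0.0146%), and by 0 of the 5 members. The study's criteria were met by 339 genes in the lower direction (2.47%) and 213 in the higher (1.55%), and by 0 of the 5 members. All 552 genes with an unadjusted p below 0.05 in the main fit met them. The limit on the size of the difference thus removed no gene there. These 552 were a smaller share of the 13719 genes than the 0.05 that chance alone would give. The study itself reports fewer differentially expressed genes under its criteria. Groups without overlap were found for 841 genes lower in cKO (6.13%) and 482 genes higher (3.51%), and for 0 of the 5 members, while Eda2r, which was not tested, overlapped too. Over all genes tested 60.3% had a fitted value below 0. In bulk tissue, fewer cells of a type and less RNA per cell cannot be told apart, and this holds for each level given here.

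The members have long transcripts, and genes of like length had medians below that of all genes tested (-0.07). Protein-coding genes with a transcript at most 25% longer or 20% shorter than that of Eda (5105 bases) had a median log2 fold change of -0.17 (10% to 90% range -0.45 to 0.13, 3047 genes), and those near Tnfrsf19 (4051 bases) a median of -0.13 (-0.40 to 0.15, 3775 genes). The estimate of Tnfrsf19, -0.42, was below the 10% point of its length class, whereas that of Eda, -0.34, lay inside its range. For Edar, Edaradd and Traf6 the medians of the length classes were -0.10, -0.24 and -0.22, and the members' estimates lay inside the 10% to 90% ranges. With length and GC content corrected in each library, Tnfrsf19 was at -0.28 (limma unadjusted p = 0.0611), Eda at -0.12 (unadjusted p = 0.678), Traf6 at -0.07 (unadjusted p = 0.682) and Edar at -0.02 (unadjusted p = 0.951). Summed ribosomal RNA genes also differed between the groups, at 1363, 3283 and 2033 TPM in control against 16291, 12080 and 8400 TPM in cKO. Any difference in preparation between the groups would follow genotype, so these cannot be told apart here. The part of ribosomal RNA in the members' values was not tested.

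**Figure D3:**
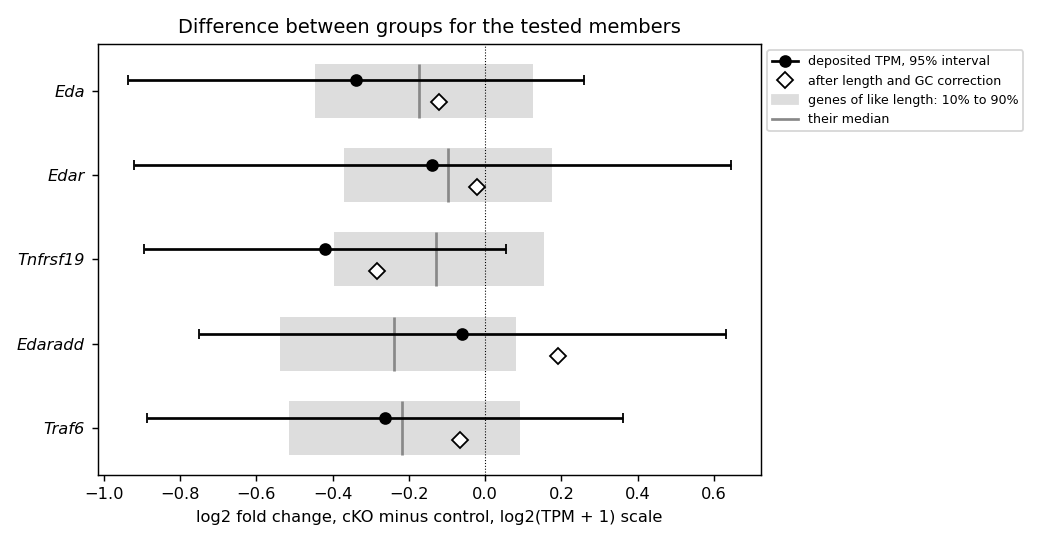
Log2 fold change (cKO against control, log2(TPM + 1) scale) of the 5 tested members, with the 95% interval from limma as a horizontal line, beside the value corrected for length and GC content and the median and 10% to 90% range of genes of like transcript length. Each uncorrected interval crosses 0, and only the Tnfrsf19 point, at -0.42, lies below the range of its length class.

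Since Wnt ligands act through TCF/LEF factors, the promoters of the members were searched for TCF/LEF letters (CTTTG followed by AA, AT, TA or TT, on either strand) in the RefSeq windows of GRCm38.p6, 300 bases that include each start. All 6 members had a window there, with 7 windows in total since Tnfrsf19 has 2 starts. A match stood in the Edar window and in the window of the inner Tnfrsf19 start, and of all 32851 promoter windows 16.9% held one. The windows of Eda, Eda2r, Edaradd, Traf6 and the outer Tnfrsf19 start held none of these letters, and none of the 7 held the NF-kB motif, which 5.81% of all windows held. Both matching windows are given below in the sense of the gene with the match in capitals, on the minus strand of chr10:58675647-58675946 and of chr14:61037938-61038237. The Edar match runs from 233 to 227 bases before the start, and the Tnfrsf19 match from 202 to 196 bases before the start on the opposite strand. A match is a description of letters and not of binding.
Edar promoter: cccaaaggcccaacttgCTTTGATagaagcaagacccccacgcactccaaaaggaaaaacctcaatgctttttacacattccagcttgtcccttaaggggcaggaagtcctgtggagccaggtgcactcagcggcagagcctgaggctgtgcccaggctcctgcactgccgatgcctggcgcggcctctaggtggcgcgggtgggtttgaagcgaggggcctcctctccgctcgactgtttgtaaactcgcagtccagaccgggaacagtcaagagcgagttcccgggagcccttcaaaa
Tnfrsf19 inner promoter: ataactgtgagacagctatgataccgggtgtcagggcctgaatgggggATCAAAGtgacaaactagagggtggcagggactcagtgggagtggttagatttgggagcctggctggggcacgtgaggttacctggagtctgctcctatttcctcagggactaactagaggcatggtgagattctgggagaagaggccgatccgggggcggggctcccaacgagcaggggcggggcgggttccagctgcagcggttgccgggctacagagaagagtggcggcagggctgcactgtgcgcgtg

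Downstream of the receptors, a list of 23 genes carrying the signal to NF-kB was examined, of which 21 were tested. None met the study's criteria in either direction, and 19 had a fitted value below 0 and 2 above, where 60.3% of all genes tested were below 0. The list median was -0.20 against -0.07 over all genes tested. After the length and GC correction 13 of 21 were below 0 and the median was -0.04, beside 49.6% and 0.002 over all genes. Single libraries moved the list too: its median was -0.07 without control replicate 2 (14 of 21 below 0), -0.37 without control replicate 3 and -0.38 without cKO replicate 2, beside 0.02, -0.18 and -0.16 over all genes tested in those fits. Genes past the criteria then numbered 0 to 2, with 2 without control replicate 3 and 1 without cKO replicate 1 or 3. Over all 13719 genes, 1159, 204 and 951 met them in those fits, in that order, and 2.47% lower and 1.55% higher in the main fit. Ikbkg (NEMO, the regulatory subunit of the IKK complex) was the 1 gene of 21 whose groups did not overlap, a share near the 6.13% of all genes tested, with 11.87, 22.49 and 13.71 TPM in control against 10.82, 11.04 and 11.67 TPM in cKO (log2 fold change -0.43, limma unadjusted p = 0.127). Most of its difference in means came from control replicate 2, and the other 5 values lay between 10.82 and 13.71 TPM.

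Among the TRAF adaptors, Traf5 had the smallest p of the list, at 6.42, 9.19 and 8.49 TPM in control against 7.32, 4.95 and 3.65 TPM in cKO (log2 fold change -0.55, limma unadjusted p = 0.0837). Its cKO replicate 1 lay above control replicate 1. Traf3, an inhibitor of the alternative NF-kB route, averaged 9.59 ± 2.21 TPM in control against 6.88 ± 0.907 TPM in cKO (SD, n = 3 each, limma unadjusted p = 0.111). Furin, the protease that releases ectodysplasin from the membrane, was at 71.13, 63.89 and 70.22 TPM in control against 37.13, 47.91 and 73.17 TPM in cKO. Its cKO replicates 1 and 2 were below every control, but replicate 3 was the highest of all (log2 fold change -0.42, limma unadjusted p = 0.132). Tab2, which links TRAF6 to the kinase TAK1, averaged 48.4 ± 17.0 and 39.0 ± 8.11 TPM (limma unadjusted p = 0.417).

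Genes known to respond to ectodysplasin in tooth, hair or gland were split in direction. Of 16 symbols listed, 15 were in the table and 9 were tested, with 4 fitted values below 0 and 5 above. Wnt10a, the deleted gene, was the 1 gene that met the study's criteria (2 genes without cKO replicate 3, where the list median was -0.17). Over all genes tested 2.47% met them lower in cKO and 1.55% higher, and without cKO replicate 3 they were met by 951 of 13719. Shh, the enamel knot signal, was at 120.94, 170.77 and 154.1 TPM in control against 74.78, 147.1 and 168.92 TPM in cKO (log2 fold change -0.26, limma unadjusted p = 0.442). Foxi3, a forkhead factor of ectodermal appendages, was at 13.15, 18.04 and 15.57 TPM in control against 8.26, 9.53 and 18.52 TPM in cKO. Both genes had cKO replicate 1 as the lowest library, and Foxi3 had cKO replicate 3 as the highest (log2 fold change -0.41, limma unadjusted p = 0.222).

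The 95% intervals of the other named genes of the list held 0. Fst (follistatin, which binds activin) averaged 4.31 ± 0.363 and 3.61 ± 0.472 TPM (log2 fold change -0.21, limma unadjusted p = 0.349). Sostdc1 (ectodin, an inhibitor of BMP and Wnt signals) averaged 88.5 ± 4.96 and 94.2 ± 8.52 TPM (0.09, limma unadjusted p = 0.566), and Ccn2, a matricellular protein, 13.6 ± 5.43 and 17.0 ± 6.03 TPM (0.31, unadjusted p = 0.424). Dkk4 and Cxcl11 were listed at 0 in all 6 libraries, and Fgf20, an enamel knot growth factor, was listed above 0 in control replicate 2 alone, at 0.17 TPM.

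The remaining comparison was with a list of genes, Wnt10a included, mutated in ectodermal dysplasia or tooth agenesis, the disorders shared by WNT10A and the ectodysplasin genes. Of 31 symbols listed 28 were in the table and 25 were tested. The study's criteria were met by 4 of the 25, against 2.47% lower and 1.55% higher over all genes tested. All were lower in cKO, namely the deleted gene Wnt10a itself and 3 others, the desmosome genes Pkp1 (plakophilin 1) and Dsp (desmoplakin), and Kremen1, a receptor of the Wnt inhibitors of the Dkk family. Pkp1 was at 140.24, 128.22 and 142.07 TPM in control against 72.0, 85.32 and 121.64 TPM in cKO (log2 fold change -0.59, SE 0.21, limma unadjusted p = 0.0260, adjusted p = 1.00). Dsp was at 144.7, 107.97 and 93.21 TPM in control against 52.68, 70.76 and 92.44 TPM in cKO (-0.69, SE 0.25, limma unadjusted p = 0.0302, adjusted p = 1.00). Kremen1 was at 43.67, 48.47 and 44.54 TPM in control against 25.37, 27.75 and 41.14 TPM in cKO (-0.55, SE 0.21, limma unadjusted p = 0.0328, adjusted p = 1.00). In these 3 genes cKO replicate 3 was the cKO library nearest to the controls, and for Dsp it lay less than 1 TPM below the lowest control.

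With length and GC content corrected, Pkp1, Dsp and Kremen1 no longer met the criteria, and Wnt10a remained. Their log2 fold changes were then -0.37 for Pkp1, -0.33 for Dsp and -0.32 for Kremen1 (limma unadjusted p = 0.0902, 0.185 and 0.1003). The count of 4 also rested on single libraries, since it was 1 without control replicate 1, cKO replicate 1 or cKO replicate 2, 2 without control replicate 2 and 7 without cKO replicate 3, and it was 2 with median-ratio scaling. Over all genes, 237, 204, 282, 369 and 951 of 13719 met the criteria in those leave-out fits, in that order, and 649 of 13661 with median-ratio scaling. Groups did not overlap for 7 genes of the list, all lower in cKO (6.13% lower and 3.51% higher over all genes tested). They were the 4 above (with the deleted Wnt10a among them), Ikbkg, the Wnt feedback gene Axin2 and the adhesion gene Nectin4, the last 2 being named after their values were seen. Fitted values were below 0 for 17 and above 0 for 8 of the 25, where 60.3% of all genes tested were below 0. The list median was -0.21, beside -0.07 over all genes tested. It became -0.03 after the correction, -0.13 without control replicate 2 and -0.33 without control replicate 3. Over all genes tested the medians in those fits were 0.002, 0.02 and -0.18. The gap junction gene Gja1, the most abundant of the list, averaged 796 ± 156 and 629 ± 60.9 TPM (limma unadjusted p = 0.126), and Ltbp3, which anchors latent TGF-beta, 203 ± 23.4 and 182 ± 35.5 TPM (unadjusted p = 0.412).

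**Figure D4:**
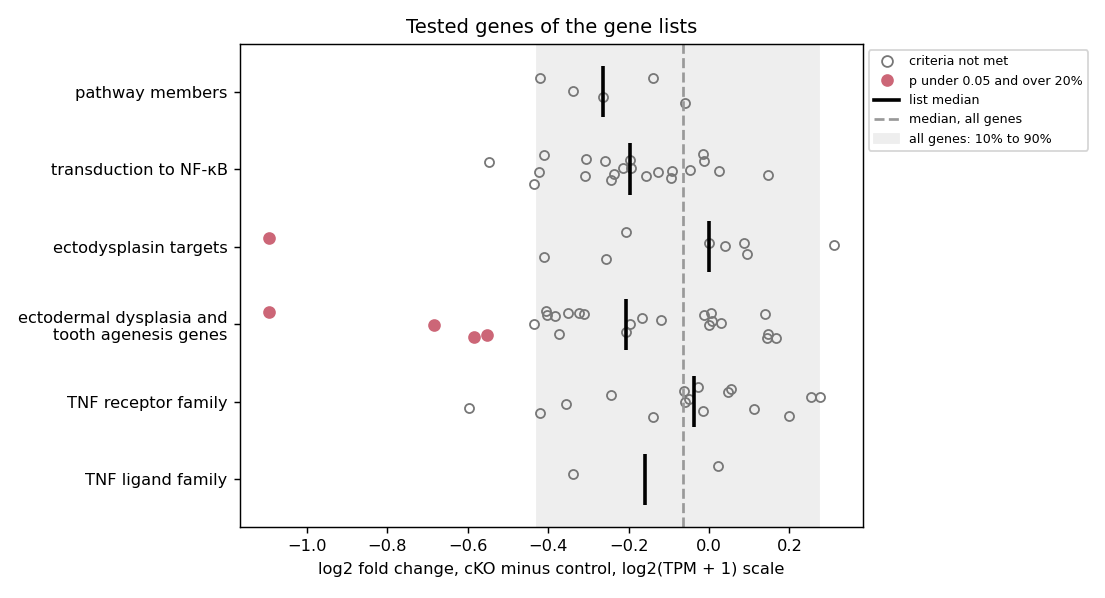
Log2 fold change (cKO against control, log2(TPM + 1) scale) of each tested gene of the gene lists, 1 point per gene, with the list median as a bar and the 10% to 90% range of all 13719 tested genes as shading. The NF-kB and dysplasia lists had medians of -0.20 and -0.21, the target list lay near 0, and the points past the study's criteria were Wnt10a, Pkp1, Dsp and Kremen1.

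Markers of other cells in the pools were read beside these values. Summed over 8 dental mesenchyme markers the groups overlapped, at 6930, 4415 and 3500 TPM in control against 4453, 5004 and 4655 TPM in cKO. Control replicate 1 was the highest library, and the median log2 fold change of these markers, -0.11, was 0.19 without it and -0.31 without control replicate 3, where 2 markers met the study's criteria, so no direction can be given. Over all genes without control replicate 3, 1159 of 13719 met the criteria and the median was -0.18. The 5 endothelium markers all had fitted values below 0, with Cdh5 (log2 fold change -0.77, limma unadjusted p = 0.0288) and Tek (-0.54, unadjusted p = 0.0458) past the study's criteria. Over all genes tested 60.3% had a fitted value below 0, and 2.47% met the criteria lower in cKO and 1.55% higher. The endothelium markers summed to 95.47, 60.18 and 81.5 TPM in control against 47.7, 52.31 and 67.31 TPM in cKO. With length and GC content corrected neither gene met the criteria, at log2 fold changes of -0.61 for Cdh5 and -0.40 for Tek (unadjusted p = 0.0624 and 0.0617 by limma). No endothelium marker met them with quantile normalization or without control replicate 1, cKO replicate 1 or cKO replicate 2. They were met by 3 without control replicate 2, by 3 with the replicate block and by 2 with the block and the correction together. Over all genes tested, 369, 1315 and 1110 met them in those fits, in that order. Pecam1, the most abundant of them, averaged 22.0 and 16.1 TPM. The 6 erythroid markers summed to 1761, 1326 and 1978 TPM in control against 1228, 1282 and 1161 TPM in cKO, without overlap, led by Hbb-bs at 641 and 476 TPM, whose reads may be shared with near-identical globin copies. Of the 5 erythroid markers tested all had fitted values below 0, and Hbb-bs met the study's criteria (log2 fold change -0.43, limma unadjusted p = 0.0323). With length and GC content corrected 3 of the 5 met them, as did 4 without control replicate 2, and 0 did so without control replicate 1, control replicate 3, cKO replicate 1 or cKO replicate 3, or with median-ratio scaling. Over all genes, 619 of 13707 met them with the correction and 369 of 13719 without control replicate 2. Genes without overlap made up 6.13% (lower in cKO) and 3.51% (higher) of all genes tested. Leukocyte markers summed to 9.67 and 7.09 TPM (5 genes, led by Cd68, 3 with means below 1 TPM), skeletal muscle markers to 5.74 and 5.11 TPM (6 genes, led by Mylpf, 5 with means below 1 TPM), and nerve and glia markers to 112 and 116 TPM (4 genes, led by Tubb3, with Sox10 below 1 TPM), all with overlap. The 8 dental epithelium markers, dominated by Amelx, summed to 212130, 204430 and 245760 TPM in control against 195350, 100660 and 214510 TPM in cKO. Of these 8, 7 had fitted values below 0, with a median of -0.24 beside -0.26 for the 5 tested members, and none met the study's criteria. The epithelium median was -0.14 after the length and GC correction, -0.09 without cKO replicate 1, -0.15 without cKO replicate 2 and -0.41 without cKO replicate 3. No marker was at 0 in all libraries, and the part of epithelial, vessel and blood RNA in the members' values was not tested.

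The genes whose pattern over the 6 libraries was most like that of each of the 5 tested members were also listed (Eda2r, below 1 TPM, was left out), by the root mean square difference of log2 deviations from the gene mean, among 9719 genes averaging 5 TPM or more. For Tnfrsf19 they were Brd3 (0.035), Mfap3 (0.056) and Mrtfb (0.057), against a median of 0.34 over these genes. Brd3, a bromodomain reader of acetylated histones, was at 19.28, 22.53 and 17.07 TPM in control against 11.06, 17.62 and 14.88 TPM in cKO, and the 6 libraries stood in the same order for Brd3 as for Tnfrsf19. For Eda they were Ubb-ps (0.035), Vat1 (0.058) and the glycolytic enzyme gene Pkm (0.064). For Edaradd they were Tubgcp3 (0.043), Arl13b (0.043) and Kat8 (0.045), and for Traf6 Eif2s3x (0.049), Utrn (0.055) and Lman1 (0.062). Edar had the least close neighbours, Angel1 (0.10), Cables1 (0.12) and Tsku (0.13). With 6 libraries and 9719 genes, close patterns occur for many genes, and the values are a description.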

How the data were processed

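RNA was extracted with TRIzol and libraries were made with a TruSeq RNA kit from 1 µg of total RNA. Per the study's methods and the submitters' processing notes, reads were trimmed with SeqPrep and Sickle and aligned with HISAT2, and abundance came from RSEM in the methods, whereas the notes name StringTie. The genome build and annotation are not given in the sources used here. The number of M1 pooled per library differs between the sources (4 or 5). The authors deposited TPM per gene, with columns that summed to 983952 to 993946. The methods name FPKM, but the sums are those of TPM. Depth cannot be recovered from TPM, so it is unknown here and no counting intervals are given.

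Genes averaging 1 TPM or more were tested with limma 3.58.1 in R 4.3.3 (lmFit, eBayes with trend) on log2(TPM + 1), without a replicate block, and p-values were adjusted by Benjamini-Hochberg over all 13719 genes. A fold change on this scale understates the change of low genes. Calls used an adjusted p below 0.05, and the study's criteria (unadjusted p below 0.05, difference above 20% of the control mean) were applied as well. Single values were compared by exact two-sided permutation. Tests were tried on simulated data first. Positions, lengths and GC content came from GENCODE M21 (GRCm38), which held 99.4% of the gene IDs, and promoters from RefSeq. The members' exons overlapped no other gene's exons.

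Length and GC correction subtracted from each library a spline with 4 degrees of freedom. Other alternatives were the pseudocount, the filter, quantile and median-ratio scaling, TPM rescaled over protein-coding genes other than Amelx and Ambn, no trend, a replicate block and leaving out each library. The members and gene lists were chosen with earlier results of these data known. Genes named by rule were the members, Wnt10a, the 4 genes of each list with the smallest unadjusted p and the 2 with the highest mean, the 3 genes most like each member, and the leading marker of each cell type. Others were named outside this rule, among them Krt14, Tnfrsf12a, Dkk4, Cxcl11 and Fgf20. Cdh5 and Tek, which were past the study's criteria, were also outside it and were named with their values known.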

Additional observations from a re-analysis of the deposited data

How the results depend on the processing

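No member reached an adjusted p below 0.05 in limma under any of the 16 alternatives, and the depth behind low genes such as Eda2r is unknown. Eda stayed below 0 in all 15 alternatives that tested it (-0.50 to -0.12, unadjusted p 0.101 to 0.678), and Tnfrsf19 (-0.55 to -0.26) and Traf6 (-0.52 to -0.07) in all 16. Edar ran from -0.44 to 0.097 when single libraries were left out. Edaradd was at 0.020 with quantile normalization, at 0.19 with the length and GC correction and with that correction in the block, and ran from -0.26 to 0.15 when single libraries were left out. The cause of these changes was not tested. Members past the study's criteria numbered 0, but 1 (Tnfrsf19) with quantile normalization, with protein-coding genes other than Amelx and Ambn and with the replicate block, and 0 to 2 when single libraries were left out (Tnfrsf19 and Traf6 without control replicate 3, Tnfrsf19 without cKO replicate 2). Over all genes, the criteria were met in these fits by 649 of 13719, 756 of 12620, 1315 of 13719, 1159 of 13719 and 282 of 13719, in the order given.

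Over all genes, the 2 calls became 4 with a pseudocount of 0.1, 1 without a filter, 4 with quantile normalization, 0 with protein-coding genes other than Amelx and Ambn (limma, with 756 genes past the study's criteria there) and 2 to 9 when single libraries were left out (8 without control replicate 3, 4 without cKO replicate 1, 9 without cKO replicate 3). Genes past the study's criteria numbered 552 (213 higher), 940 without a filter and 204 to 1159 when single libraries were left out (237 without control replicate 1, 1159 without control replicate 3, 204 without cKO replicate 1, 282 without cKO replicate 2, 951 without cKO replicate 3). The higher direction held 324 of 649 with quantile normalization, 316 of 649 with median-ratio scaling, 104 of 756 with protein-coding genes other than Amelx and Ambn, and 334 of 619 with the length and GC correction. The log2 ratio of Edar to Eda differed by 0.028 to 0.40 between groups over 8 alternatives.

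Replicate numbers are shared by the groups, and the study's methods speak of pairs of biological replicates without saying what a pair shared. The deposited columns are numbered 1, 3 and 4 in both groups, and the sample titles call them replicates 1, 2 and 3. Deviations of same-numbered libraries correlated at -0.083, 0.29 and 0.40, and 4 of the 6 correlated best with their own number. These values do not settle whether the numbers pair the libraries. Eda, Edaradd and Tnfrsf19 were lower in cKO in all 3 same-numbered pairs, and Edar, Eda2r and Traf6 in 2. With the replicate block, limma called 4 genes, 1315 met the study's criteria, 2 of them TNF receptors, and Tnfrsf19 had an unadjusted p of 0.0424 and an adjusted p of 0.519. With the block and the length and GC correction together, 1 gene was called, 1110 met the criteria (615 higher), and Edaradd was at 0.19.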

Other observations

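Several genes of the TNF receptor family lay below the limit for testing and are given as values. Tnfrsf14 (HVEM, the receptor of Tnfsf14) was at 1.17, 0.52 and 0.67 TPM in control against 0.05, 0.28 and 0.20 TPM in cKO, and Tnfrsf1b (TNF receptor 2) at 1.96, 0.72 and 0.98 TPM in control against 0.50, 0.60 and 0.73 TPM in cKO. Tnfrsf14 did not overlap between groups, whereas Tnfrsf1b did. Cd27, a costimulatory receptor, had the higher mean in cKO, with overlap, at 0.30, 0.23 and 0.40 TPM in control against 0.66, 0.90 and 0.29 TPM in cKO. Among the ligands, Tnfsf11 (RANKL, the osteoclast factor) was at 0.54, 0.24 and 0 TPM in control against 0.51, 1.75 and 0 TPM in cKO. Of the dysplasia list, the transcription factors Pax9 and Tfap2b had means below 1 TPM, with Pax9 at 1.49, 1.09 and 0.53 TPM in control against 1.03, 0.92 and 0.32 TPM in cKO. These genes were chosen after their values were seen, and their means kept them out of the main test, although genes this low entered the alternative without a filter. There, 1 of 27 receptors met the study's criteria, lower in cKO, and 1 of 15 ligands, higher in cKO. Over all genes 940 of 28254 met them in that alternative.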
